A study of Mus musculus with 9 samples.

Results

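The 9 protein-coding genes described here lie on mouse chromosome 14 around *Vdac2*, the gene deleted in this study. They are *Camk2g*, *Vcl*, *Ap3m1*, *Adk*, *Kat6b*, *Dusp13*, *Samd8*, *Comtd1* and *Zfp503*, and they were taken by name from the 52636 Ensembl genes of the deposited count table. *Vdac2* encodes a porin of the outer mitochondrial membrane, through which metabolites and calcium pass. Genes beside a deleted gene are of interest because an edited locus can carry overlapping transcripts, shared regulatory sequence and linked alleles, so a neighbour can differ between animals for reasons of position as well as of physiology. The neighbours themselves do unrelated work, from adenosine phosphorylation to cell adhesion.

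RNA came from the left ventricle of 16-week-old C57BL6J mice. Libraries 1 to 5 carry the genotype label VDAC2 WT and libraries 6 to 9 the label VDAC2 KO, the KO being *Vdac2* flox/flox mice with Cre driven by the alpha-myosin heavy chain promoter, which acts in cardiac myocytes. Non-myocytes therefore keep *Vdac2*. The study's controls carried either the floxed allele or Cre alone, and the labels do not say which of these each WT library had. The total count per library was between 27345052 and 44673988. All libraries labelled WT were run in lane 1 and all labelled KO in lane 2. *Xist* was between 335 and 587 CPM under the KO label and at most 0.152 CPM under the WT label, while *Ddx3y*, on the Y chromosome, reached at most 1 count under the KO label. Label, lane and these sex-chromosome genes cannot be told apart.

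*Vdac2* (ENSMUSG00000021771) did not follow the labels. Levels are given in CPM, read counts scaled to the size of each library after TMM normalization. Under the WT label, libraries 1 to 5 held 20.2, 366, 58.5, 365 and 21.3 CPM of it. Under the KO label, libraries 6 to 9 held 384, 20.5, 421 and 19.1 CPM. Low and high libraries were thus found under both labels. The 9 neighbours are therefore set out in 2 ways. The first compares the deposited labels, with a test. The second sets libraries 1, 5, 7 and 9, with *Vdac2* under 100 CPM (the low-Vdac2 libraries), beside libraries 2, 4, 6 and 8, with *Vdac2* over 300 CPM (the high-Vdac2 libraries). That split was chosen from the measured level of *Vdac2*. It is a description without a test, these sets are not the study's groups, and no library was given another genotype. The highest *Vdac2* level among the low-Vdac2 libraries was 21.3 CPM and the lowest among the high-Vdac2 libraries was 365 CPM. Library 3, labelled WT and at 58.5 CPM, is shown apart, because it also stood away from the others in its cell-type markers. Each set holds 2 libraries of each label and lane.

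On GRCm38, *Vdac2* runs on the plus strand from 21825238 to 21845879 (chr14:21825238-21845879). Its nearest annotated protein-coding neighbour is *Comtd1* on the minus strand (chr14:21845855-21848977). The 3′ ends of the 2 genes overlap by 25 exonic bases. *Zfp503* lies beyond it (chr14:21983959-21989601). On the other side follow *Samd8* (chr14:21750531-21798726), *Dusp13* (chr14:21733394-21751181), *Kat6b* (chr14:21481434-21672478), *Adk* (chr14:21052574-21448569), *Ap3m1* (chr14:21031442-21052508), *Vcl* (chr14:20929398-21033676) and *Camk2g* (chr14:20734875-20794088). Relative to the left end of *Vdac2*, the left ends of these genes lie between -1090.4 kb (*Camk2g*) and 158.7 kb (*Zfp503*).

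The promoter windows of *Comtd1* and *Adk* are shown because these are the neighbours whose levels differed most clearly between low-Vdac2 and high-Vdac2 libraries, and because the *Adk* window also contains the start of *Ap3m1*, which did not. Each runs from 250 bases before to 50 bases after a RefSeq start (GRCm38.p6), 5′ to 3′ on the strand of the named gene. *Comtd1* is read from the minus strand (chr14:21848861-21849160) and *Adk* from the plus strand (chr14:21052324-21052623). Capitals mark matches, on either strand, to TATAAA (the TATA box), GGGCGG (the GC box), ATTGG (the CCAAT box), CACGTG (an E-box), TGATGCAA (an ATF4 and C/EBP composite element) and TGACGTCA (the cAMP response element).
Comtd1: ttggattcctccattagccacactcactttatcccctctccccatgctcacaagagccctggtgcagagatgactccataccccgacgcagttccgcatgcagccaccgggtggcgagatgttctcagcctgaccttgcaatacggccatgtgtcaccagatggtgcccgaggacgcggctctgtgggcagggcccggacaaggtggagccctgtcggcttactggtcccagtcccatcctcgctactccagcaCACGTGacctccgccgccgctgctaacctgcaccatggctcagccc
Adk: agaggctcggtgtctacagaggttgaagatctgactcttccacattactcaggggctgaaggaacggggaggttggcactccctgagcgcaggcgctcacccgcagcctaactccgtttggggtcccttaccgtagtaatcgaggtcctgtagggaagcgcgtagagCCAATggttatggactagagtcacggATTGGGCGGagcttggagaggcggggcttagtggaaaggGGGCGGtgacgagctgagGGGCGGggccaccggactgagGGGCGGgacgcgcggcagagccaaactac

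The *Comtd1* window held 1 match, to CACGTG, which begins 4 bases after the start and is found in 7.15% of the 32851 RefSeq promoter windows. The *Adk* window held GGGCGG and ATTGG, which occur in 35.7% and 37.4% of all windows, and 1 ATTGG match overlaps a GGGCGG match. TATAAA occurs in 13.6% of windows, TGACGTCA in 1.79% and TGATGCAA in 0.895%. None of these 3 was in either printed window, which says only that these letters are not there. The RefSeq starts of *Adk* and *Ap3m1* point away from each other with 131 bases between them, and so fall in the same window. *Vdac2* and *Camk2g* are named only, without a promoter sequence.

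*Comtd1* (ENSMUSG00000021773), which encodes a protein with a catechol-O-methyltransferase domain, was the neighbour that differed most between the 2 sets, and it was higher where *Vdac2* was low. In libraries 1, 5, 7 and 9 it was at 9.91, 7.87, 7.78 and 14.4 CPM, from 302, 258, 295 and 624 counts. In libraries 2, 4, 6 and 8 it was at 2.60, 2.32, 2.76 and 2.82 CPM, from 71, 61, 104 and 96 counts. Every low-Vdac2 library thus lay above every high-Vdac2 library, the nearest values being 2.75-fold apart. The medians were 8.89 and 2.68 CPM, a ratio of 3.32, and library 3 held 19.1 CPM, the highest level of all 9. Within lane 1, where all libraries are labelled WT, the medians were 8.89 and 2.46 CPM, a ratio of 3.62. Within lane 2, where all are labelled KO, they were 11.1 and 2.79 CPM, a ratio of 3.97. The direction of *Comtd1* was therefore the same under each label. Of 16321 genes that passed the expression filter, 47, *Comtd1* included, had a ratio of medians at least as far from 1 as that of *Comtd1* (0.288%).

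Counts of *Comtd1* could include reads of partners on the other strand. The library kit keeps strand, but the strand setting of the counting is not given in the sources used here. The 25-base overlap with *Vdac2* is shorter than the 50-base reads, so a read touching it also extends beyond it. How such reads were counted is not given either. A longer overlap, of 897 exonic bases, is with the antisense gene *A430057M04Rik*, which held between 1 and 14 counts in the 8 libraries other than library 3 and 31 counts in library 3. Of the 50-base stretches of *Comtd1* transcripts, 26.8% are the reverse complement of a stretch of that antisense gene, and 0% occur on the same strand in another gene's transcript.

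**Figure D1:**
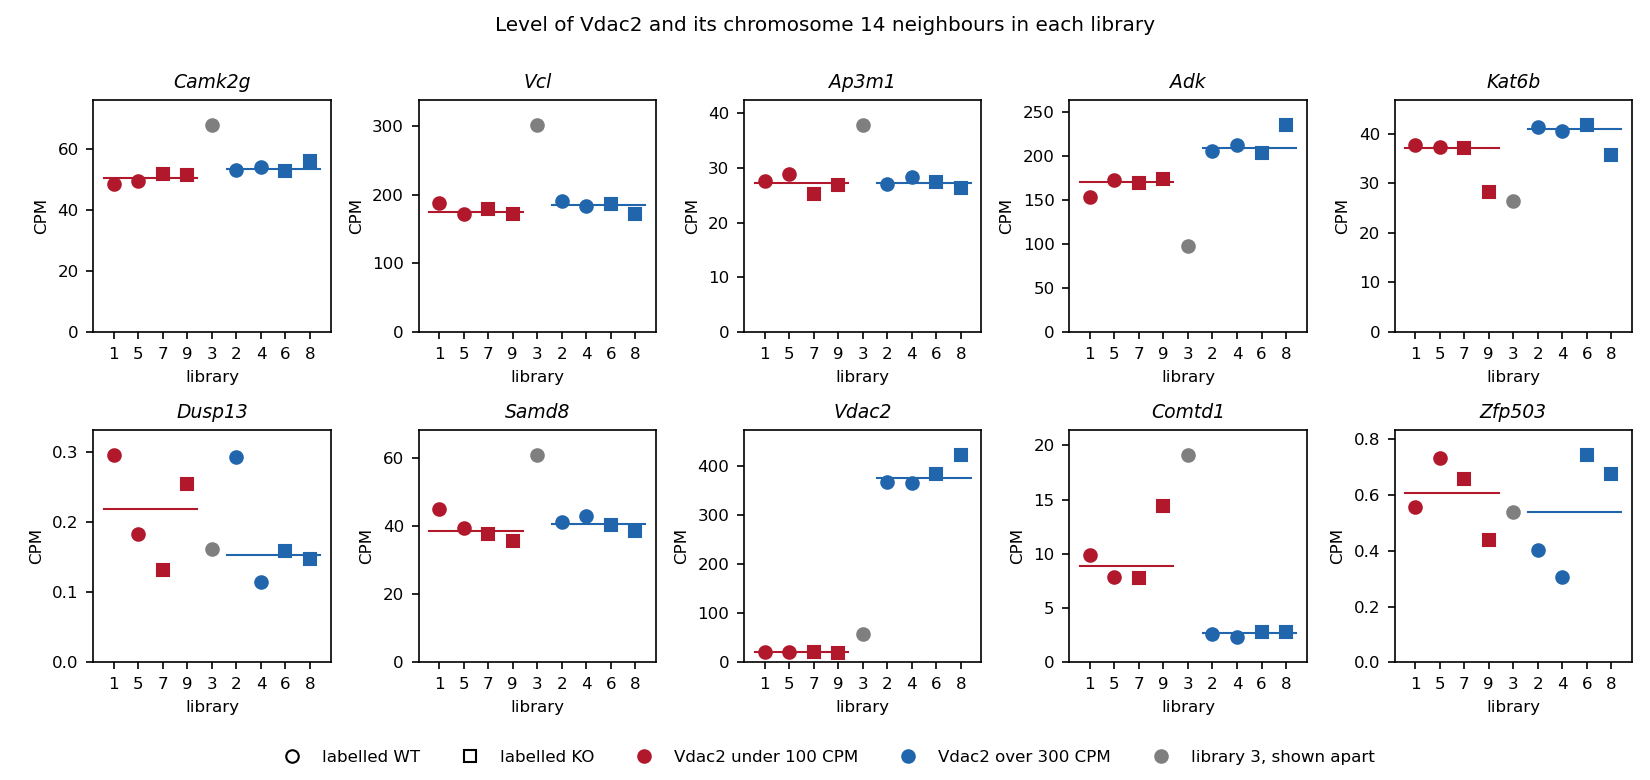
Each panel plots one gene in genome order, with the 9 libraries on the horizontal axis and the level in CPM on the vertical axis, which starts at 0. Circles are libraries labelled WT and squares those labelled KO, red marks *Vdac2* under 100 CPM, blue *Vdac2* over 300 CPM and grey library 3, and lines are medians of 4 libraries. *Comtd1* sits between 7.78 and 14.4 CPM in the red libraries and between 2.32 and 2.82 CPM in the blue ones.

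*Adk* (ENSMUSG00000039197) encodes adenosine kinase, which phosphorylates adenosine to AMP and so limits the adenosine a cell releases. It was lower where *Vdac2* was low. Its level was 154, 173, 169.95 and 174 CPM in libraries 1, 5, 7 and 9 and 206, 213, 204 and 236 CPM in libraries 2, 4, 6 and 8. The sets did not overlap, the nearest values being 1.17-fold apart, and the ratio of the medians was 0.817. Library 3 had the lowest level, 98.3 CPM. The ratio was 0.779 within lane 1 and 0.781 within lane 2. A ratio at least as far from 1 as that of *Adk* was found in 22.2% of the tested genes.

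*Ap3m1* (ENSMUSG00000021824) encodes the medium subunit of the AP-3 adaptor complex, which sorts cargo to lysosomes and related organelles. Although it starts beside *Adk*, its 2 sets overlapped. Its level was 27.7, 28.9, 25.2 and 26.8 CPM in libraries 1, 5, 7 and 9 and 27.1, 28.4, 27.4 and 26.2 CPM in libraries 2, 4, 6 and 8, with a ratio of medians of 0.999. The ratio of *Adk* counts to *Ap3m1* counts, which does not depend on how libraries are scaled, was 5.56, 5.98, 6.74 and 6.48 in the low-Vdac2 libraries and 7.61, 7.52, 7.44 and 8.98 in the high-Vdac2 libraries. In library 3 it was 2.60. These ratios did not overlap between the sets either. The level of *Ap3m1* is less certain than that of *Adk*, since its exons overlap those of *Vcl* on the opposite strand over 2090 bases and 12.2% of its 50-base stretches also occur in its pseudogene *Ap3m1-ps*.

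*Vcl* and *Camk2g* encode proteins of cardiac muscle. Vinculin, the product of *Vcl* (ENSMUSG00000021823), anchors actin at costameres and intercalated discs, and it served as a loading control on blots and as a primer pair for qRT-PCR in this study. *Vcl* was at 188, 171, 179 and 172 CPM in libraries 1, 5, 7 and 9 and at 191, 183, 187 and 173 CPM in libraries 2, 4, 6 and 8. The sets overlapped, and the ratio of medians was 0.948. Library 3, at 302 CPM, stood above all others. *Camk2g* (ENSMUSG00000021820), which encodes the gamma isoform of calcium/calmodulin-dependent protein kinase II, was at 48.4, 49.4, 51.8 and 51.3 CPM in the low-Vdac2 libraries and at 53.1, 53.9, 52.6 and 56.0 CPM in the high-Vdac2 libraries. These values did not overlap, but the nearest were only 1.02-fold apart and the ratio of medians was 0.942. With CPM by total counts and no TMM factors, the *Camk2g* ranges did overlap. Of all tested genes, 63.2% had a ratio of medians at least as far from 1. Library 3 was at 67.8 CPM, outside both sets and on the far side of the high-Vdac2 libraries.

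*Kat6b* and *Zfp503* encode regulators of transcription. *Kat6b* (ENSMUSG00000021767), a MYST-family histone acetyltransferase gene, was between 28.3 and 37.7 CPM in the low-Vdac2 libraries (median 37.2) and between 35.7 and 41.8 CPM in the high-Vdac2 libraries (median 41.0). The ranges overlapped because of library 8, at 35.7 CPM. Without library 8 they did not. *Zfp503* (ENSMUSG00000039081), a zinc-finger repressor gene of development, was low, at 8 to 28 counts per library. It was between 0.439 and 0.732 CPM in the low-Vdac2 libraries and between 0.304 and 0.743 CPM in the high-Vdac2 libraries. Its ratio of medians was 1.83 within lane 1 and 0.773 within lane 2, so it had no single direction.

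*Samd8* and *Dusp13* lie head to head, nearest to the 5′ end of *Vdac2*. *Samd8* (ENSMUSG00000021770) encodes a ceramide phosphoethanolamine synthase of the endoplasmic reticulum. It was between 35.7 and 45.0 CPM in the low-Vdac2 libraries and between 38.6 and 43.2 CPM in the high-Vdac2 libraries, with medians of 38.7 and 40.8 CPM. Library 3 was at 61.0 CPM. *Dusp13* (ENSMUSG00000021768) encodes dual-specificity phosphatases of skeletal muscle and testis. It held only 3 to 11 counts per library and did not pass the expression filter. Its ranges, 0.132 to 0.295 CPM and 0.114 to 0.293 CPM, overlapped.

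Per kilobase of annotated exon, the neighbours spanned a wide order of levels. Over the 8 libraries other than library 3, *Adk* had a median level of 22.1 CPM per kb (18.0 to 27.6) and *Vcl* one of 22.1 (20.9 to 23.3), which were not separated. *Camk2g* followed at 8.16, *Samd8* at 5.23 and *Ap3m1* at 3.88 CPM per kb, and the ranges of these 3 did not overlap. *Kat6b* had a median of 2.23 CPM per kb, within the range of *Comtd1*, which ran from 0.940 to 5.83 CPM per kb. *Zfp503*, at 0.144 CPM per kb, and *Dusp13*, at 0.0623 CPM per kb, were at the bottom, with ranges that overlapped each other. On the same scale *Vdac2* had medians of 4.26 CPM per kb in the low-Vdac2 libraries and 78.7 CPM per kb in the high-Vdac2 libraries. *Comtd1* had medians of 3.60 and 1.08 CPM per kb.

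Of the 9 neighbours, 8 passed the expression filter. Of these, *Comtd1* was higher without overlap in the low-Vdac2 libraries, *Adk* and *Camk2g* were lower without overlap, and 5 overlapped. Over all tested genes other than *Vdac2*, the ranges did not overlap in 12.1%, with 7.16% higher and 4.92% lower in the low-Vdac2 libraries. Because these libraries were chosen by *Vdac2*, the members' counts are given beside those shares only as a description. The median log2 ratio of medians was -0.075 over the 8 neighbours and 0.0050 over all tested genes. Within lane 1, 5 of the 8 did not overlap, against 47.9% of all tested genes (24.5% higher and 23.3% lower in the low-Vdac2 libraries). Within lane 2 it was also 5, against 37.8% (20.7% higher and 17.1% lower).

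A wider list was fixed by position alone and holds the 54 annotated genes whose start lies within 1.5 Mb of the start of *Vdac2*. In it, 26 genes passed the filter and 5 did not overlap between the sets, against 12.1% of all tested genes. Without the 9 neighbours it was 2 of 18 (11.1%), which is close to that share. Besides the 3 named, these were *Anxa7* and *Ppp3cb*. *Anxa7*, which encodes a calcium-dependent membrane-binding annexin, was between 114 and 160.1 CPM in the low-Vdac2 libraries and between 92.0 and 104 CPM in the high-Vdac2 libraries, with a ratio of medians of 1.23. *Ppp3cb*, which encodes a catalytic subunit of the phosphatase calcineurin, was between 56.9 and 67.3 CPM and between 71.0 and 72.8 CPM, a ratio of 0.874. Both lie farther from *Vdac2* than any of the 9 neighbours, with left ends at 20455260 and 20499364 on chromosome 14. The median log2 ratio over the 26 genes was -0.041. From *Kat6b* to *Comtd1*, the tested neighbours were *Kat6b*, *Samd8* and *Comtd1*, and of these *Comtd1* alone showed ranges without overlap.

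**Figure D2:**
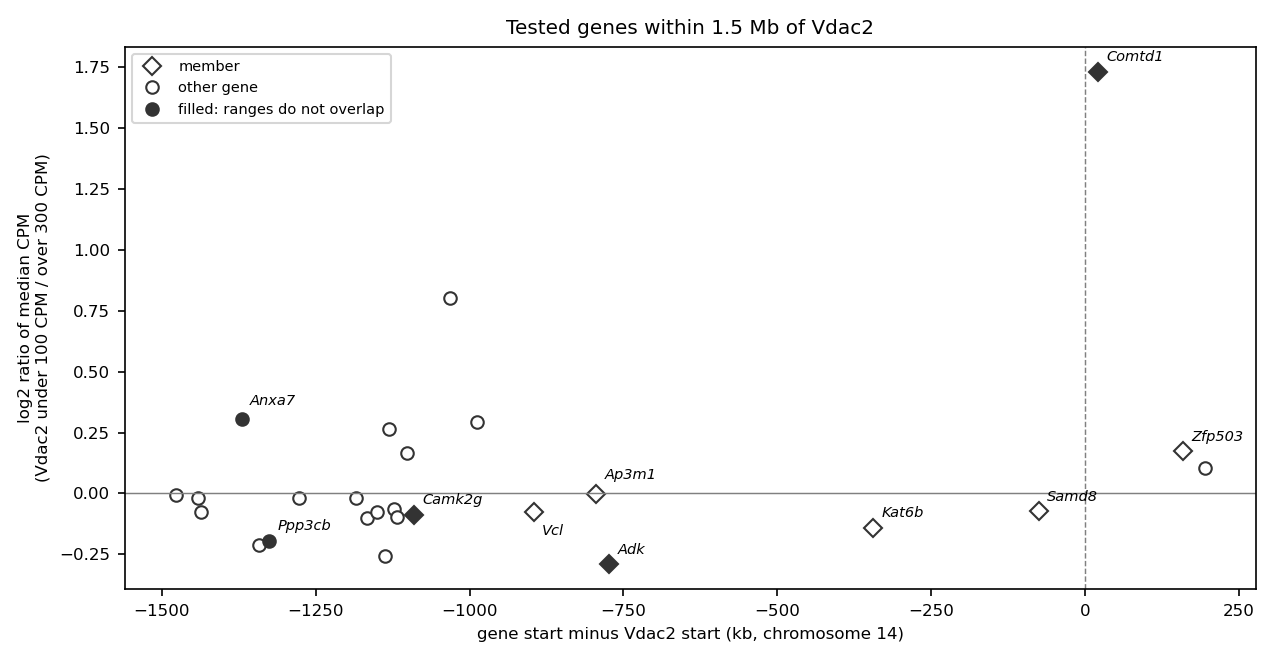
Each point is a tested gene within 1.5 Mb of *Vdac2*, with the distance of its start from the *Vdac2* start in kb on the horizontal axis and the log2 ratio of median CPM, low-Vdac2 over high-Vdac2 libraries, on the vertical axis. Diamonds are the named neighbours, circles other genes, and filled symbols have ranges that do not overlap. *Comtd1* stands at 1.73, while the other 25 genes lie between -0.29 and 0.80.

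Of 8 lists of cell-type markers, the summed level did not overlap between the sets for macrophage and cardiomyocyte markers and overlapped for the other 6. Within each lane, the fibroblast and atrial sums were also higher without overlap in the low-Vdac2 libraries. The endothelial and the smooth muscle and pericyte sums were lower there in each lane. With 2 libraries against 2, 47.9% (lane 1) and 37.8% (lane 2) of all tested genes did not overlap either. The counts of single markers without overlap stand beside 12.1% of all tested genes. The summed level of 6 macrophage markers was 297 to 444 CPM in the low-Vdac2 libraries, 199 to 293 CPM in the high-Vdac2 libraries and 870 CPM in library 3, and 3 of the 6 genes were higher without overlap where *Vdac2* was low. The 6 fibroblast markers summed to 1147 to 1330 CPM, 884 to 1148 CPM and 2858 CPM in library 3, with 2 of 6 higher without overlap. The 8 cardiomyocyte markers, all of them detected in every library, summed to 131800 to 144032 CPM, 150407 to 163848 CPM and 48990 CPM, with 2 of 8 lower without overlap, *Ttn* and *Actn2*. *Ttn* alone took the largest share of this sum in every library, at 83226 to 94003 CPM, 98397 to 103841 CPM and 39927 CPM. The rest of the markers overlapped, and *Tnnt2* was the highest of all libraries in low-Vdac2 library 9, at 5136 CPM. The 6 endothelial markers summed to 529 to 667 CPM, 649 to 775 CPM and 382 CPM, with 1 of 6 lower without overlap. The 5 smooth muscle and pericyte markers summed to 833 to 1054 CPM, 1003 to 1183 CPM and 448 CPM, with 1 of 5 lower without overlap. Of 4 atrial markers, *Sln* had 0 counts in 4 libraries, 2 were higher without overlap where *Vdac2* was low, and their sum was at most 4.29 CPM. In the sum of 6 skeletal muscle genes, 1777 to 2512 CPM against 2085 to 2412 CPM, *Ckm*, which heart muscle also expresses, took the largest share in the 8 libraries other than library 3, and *Myh4*, *Myh2* and *Myh1* were each under 1 CPM, and 1 of the 6 was higher without overlap where *Vdac2* was low. The 4 haemoglobin genes summed to 666 to 1306 CPM and 568 to 1960 CPM, and all 4 overlapped. The part of cell-type make-up in the levels of *Comtd1*, *Adk* and *Camk2g* was not tested. In bulk tissue, fewer cells of a type and less RNA per cell cannot be told apart.

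**Figure D3:**
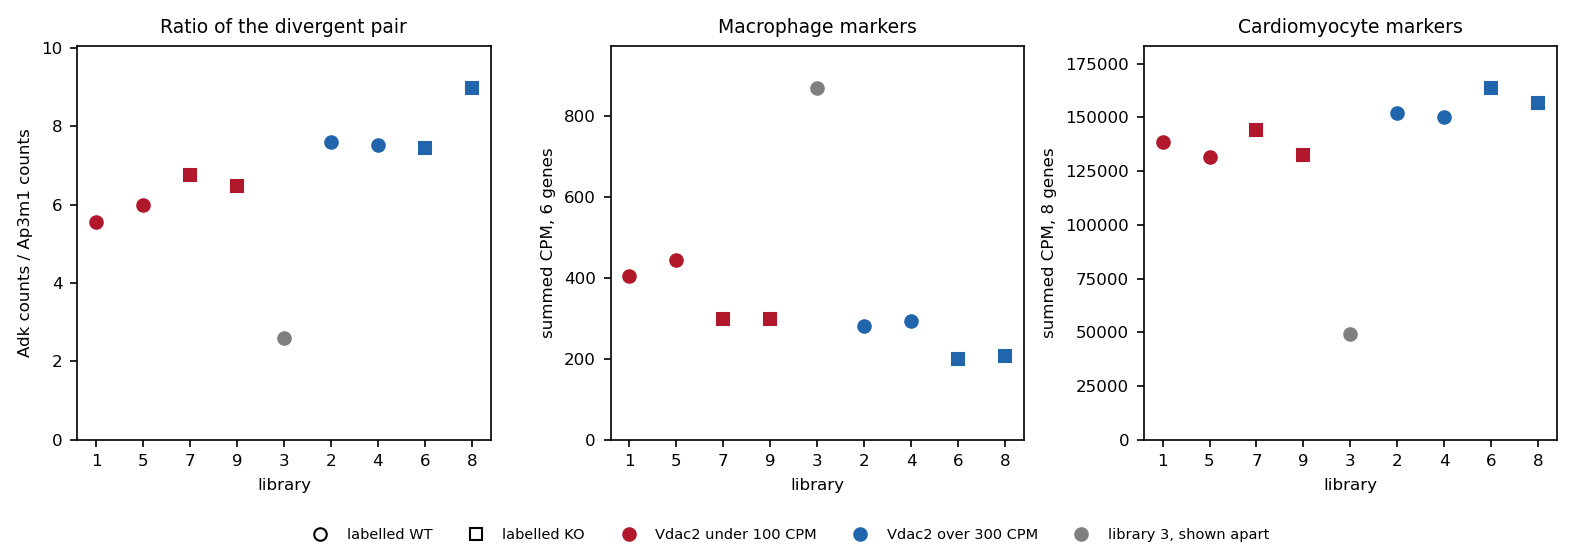
The panels plot, for each library, the ratio of *Adk* to *Ap3m1* counts, the summed CPM of 6 macrophage markers and the summed CPM of 8 cardiomyocyte markers, with axes from 0 and symbols as above for label and *Vdac2* level. The ratio lies between 5.56 and 6.74 in the low-Vdac2 libraries and between 7.44 and 8.98 in the high-Vdac2 libraries, and library 3 lies outside both sets in each panel. *Ttn* takes the largest share of the cardiomyocyte sum in every library.

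Genes with the pattern most like that of each separated neighbour were taken by Pearson's r of log2(CPM + 0.5) over the 8 libraries other than library 3. These libraries form 2 clusters of *Vdac2*, so r is large for any gene that follows them, and it is given as a description. For *Comtd1* the 3 closest genes were *Rhoa*, a small GTPase of the actin cytoskeleton (r = 0.99), *Ptgis*, which encodes prostacyclin synthase (r = 0.99), and the histone gene *Hist1h2bh* (r = 0.99). *Rhoa* was between 72.0 and 78.9 CPM where *Vdac2* was low and between 63.0 and 64.7 CPM where it was high. For *Adk* they were *Hadh*, of fatty acid oxidation (r = 0.99), *Oxct1*, of ketone body use (r = 0.99), and the transcription factor gene *Sp4* (r = 0.99). *Hadh* was between 341 and 395 CPM and between 478 and 568 CPM. For *Camk2g* they were *Auh*, of leucine breakdown (r = 0.99), *Gm9856* (r = 0.98) and *Tst*, which encodes the mitochondrial enzyme thiosulfate sulfurtransferase (r = 0.97).

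Between the deposited labels, which the level of *Vdac2* does not follow, 0 of the 8 tested neighbours had an adjusted p under 0.05 by edgeR's quasi-likelihood test, against 0.0551% of the 16322 genes tested. Also 0 of the 8 had an unadjusted p under 0.05, a threshold that 6.11% of all tested genes passed, so with 8 genes this count does not set the neighbours apart. DESeq2 called 0. The log2 fold changes, labelled KO over labelled WT, ran from -0.27 for *Samd8* (standard error 0.13, adjusted p = 0.68) to 0.29 for *Zfp503* (standard error 0.28, adjusted p = 0.72). For *Vdac2* itself it was 0.35 (standard error 1.19, edgeR adjusted p = 0.92). *Comtd1* had a mean of 8.36 ± 6.85 CPM under the WT label (SD, n = 5) against 6.94 ± 5.50 CPM under the KO label (SD, n = 4). Its log2 fold change was -0.27, with a standard error of 0.71 and an edgeR adjusted p of 0.89. The spread within each label was larger than the difference, and without library 3 the sign changed, to 0.28. The means of *Adk* were 169 ± 46.3 CPM (SD, n = 5) for WT against 196 ± 30.7 CPM (SD, n = 4) for KO, and edgeR gave a log2 change of 0.21, standard error 0.22, at an adjusted p of 0.74. Without library 3 that change was 0.064, and without library 8 it was 0.11. For *Vcl* the WT mean was 207 ± 53.5 CPM (SD, n = 5), the KO mean 178 ± 6.85 CPM (SD, n = 4) and the log2 change -0.22, with standard error 0.17 and an adjusted p of 0.70 by edgeR. Without library 3 the WT mean of *Vcl* was 183 ± 8.69 CPM (SD, n = 4) and the log2 change -0.052. Leaving out library 3 also brought *Samd8* to -0.16 and *Ap3m1* to -0.090. The log2 change was -0.18 for *Ap3m1* (standard error 0.11), -0.043 for *Camk2g* (0.11) and -0.038 for *Kat6b* (0.15). The sign changed for *Camk2g* without library 3, to 0.041. It also changed for *Kat6b* without library 2 (0.0092), library 4 (0.00044) or library 9 (0.060).

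In the list of 26 tested genes around *Vdac2*, edgeR also called 0 between the labels, and DESeq2 called 0. At an unadjusted p under 0.05 there were 2 of the 26, *Plau* and *6230400D17Rik*, a share near the 6.11% of all tested genes. *Plau*, the gene of urokinase, had a value of -1.32 on the log2 scale, with standard error 0.43 and an edgeR adjusted p of 0.68. Library 3 held 26.4 CPM of it, the remaining 8 between 4.11 and 9.85 CPM. *6230400D17Rik*, an antisense gene, had a value of 0.42, with standard error 0.19 and the same adjusted p, 0.68 by edgeR. The median log2 fold change was -0.080 over the 26 genes and -0.018 over all tested genes.

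**Figure D4:**
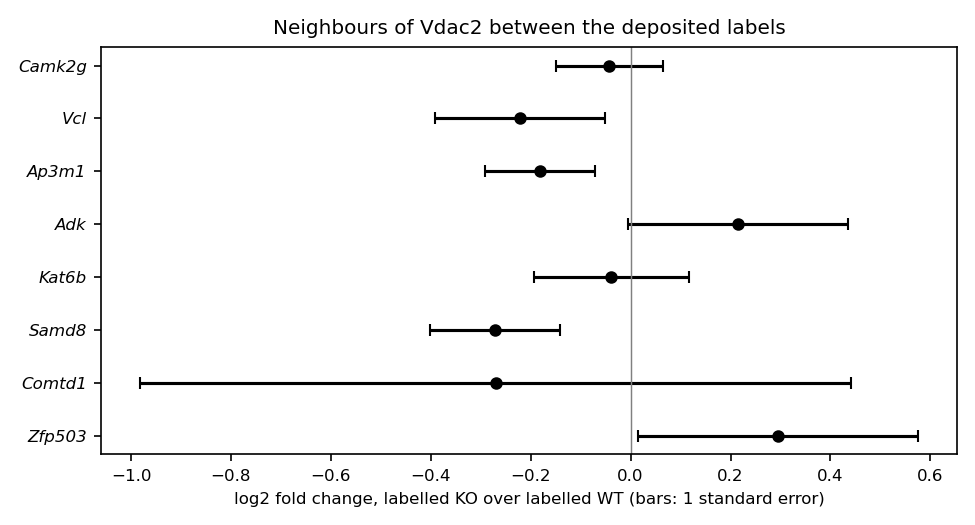
Points are log2 fold changes of the 8 tested neighbours between libraries labelled KO and labelled WT, and bars are 1 standard error from edgeR. *Samd8* (-0.27) lies farthest below 0 relative to its error, and *Comtd1* has the widest error, 0.71.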

How the data were processed

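Total RNA was depleted of ribosomal RNA and sequenced as stranded 50-base single-end libraries. The authors deposited raw counts of reads per Ensembl gene on GRCm38, without normalization, and their processing notes name STAR 2.7.2c, featureCounts 1.6.3 and DESeq2. The annotation release, strand setting and handling of multi-mapped reads are not given in the sources used here.

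Symbols and positions are from GENCODE M21. The members, lists and the split by *Vdac2* were chosen with earlier results of these data known. The genes named are the 9 members, *Vdac2*, genes of the positional list whose ranges did not overlap between the low-Vdac2 and high-Vdac2 libraries, and for each separated member the 3 genes most correlated with it. Named outside this rule were *Xist*, *Ddx3y*, the antisense gene *A430057M04Rik* and marker genes. *Plau*, *6230400D17Rik*, *Sln*, *Ckm*, *Myh4*, *Myh2*, *Myh1*, *Acta1*, *Tnnt3*, *Cnn1*, *Pdgfrb*, *Rgs5*, *Ttn*, *Actn2*, *Tnnt2*, *Col1a1*, *Col1a2* and *Dcn* were chosen after their values were seen. All 9 libraries were grouped by label (5 WT, 4 KO) and no sample column was left out. The study's reporting summary mentions 1 excluded WT sample of poor RNA quality without naming it.

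In edgeR 4.0.16 (R 4.3.3), filterByExpr, TMM factors, robust dispersions and the quasi-likelihood test were applied to all genes, with Benjamini-Hochberg adjustment, and standard errors were derived from each fold change and its F statistic. The labels do not say whether libraries came from separate animals, so p-values measure the spread between libraries. No 2 libraries of a label agreed within sampling noise (lowest chi-square per degree of freedom 7.35). A count of 3, taken as the floor, was 0.0693 to 0.114 CPM, which covers counting error only. On simulated data for this comparison, with 16219 genes in the step, 38.1% of 2-fold and 90.5% of 3-fold changes were recovered. The simulation gave every gene the same dispersion (0.0994) and changed only genes above a cut-off of level. These shares therefore do not carry over to genes that vary more within a label, such as *Comtd1* (standard error 0.71). Overlap of ranges, medians and ratios were descriptions without a test. Alternatives were DESeq2 1.42.0, voom with quality weights (limma 3.58.1), other scalings, filters and windows, lanes apart and each library left out. Promoter windows are from RefSeq (8 of 10 genes matched). No paired analysis was possible because the groups share no replicate numbers.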

Additional observations from a re-analysis of the deposited data

Results flagged for a closer look

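Library 3, labelled WT, lay far from the other 4 libraries of its label in 5 neighbours, by Dixon's test at the 95% level. It was the highest for *Camk2g* (67.8 CPM, the others 48.4 to 53.9), *Vcl* (302 CPM, the others 171 to 191), *Ap3m1* (37.8 CPM, the others 27.1 to 28.9) and *Samd8* (61.0 CPM, the others 39.6 to 45.0), and the lowest for *Kat6b* (26.5 CPM, the others 37.3 to 41.4). In all, 18 sets of values (9 genes under 2 labels) were examined, of which chance flags about 1 in 20. The 5 flags share 1 library and are not independent. In that library 9.07% of the counts were of mitochondrially encoded genes, against 16.8% to 19.2% in the others, and its marker sums lay outside those of the other 8 in every list except the red blood cell genes. They were the highest for the fibroblast, macrophage and atrial lists and the lowest for the cardiomyocyte, endothelial, smooth muscle and pericyte, and skeletal muscle lists. Single genes of the smooth muscle and pericyte list and of the skeletal muscle list went both ways. *Cnn1* (36.4 CPM), *Pdgfrb* (104 CPM), *Acta1* (729 CPM) and *Tnnt3* (5.88 CPM) were higher in library 3 than in any other library. The remaining genes of these lists were lower there than in any other, among them *Rgs5* (276 CPM) and *Ckm* (348 CPM). The fibroblast sum of library 3 was carried by *Col1a1* (691 CPM) and *Col1a2* (1412 CPM), while *Dcn*, at 454 CPM, was lower there than in the others (560.5 to 935 CPM). The part of these in its levels was not tested.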

How the results depend on the processing

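Between the labels, 0 neighbours and 0 genes of the positional list were called by edgeR in any alternative, including windows of 1 and 5 Mb, by DESeq2 and by voom. The count over all genes was 9. It was 62 with DESeq2, 77 with voom and quality weights, and 0 with at least 10 counts required in every library, a filter that removes genes absent under 1 label. With each library left out in turn it ran from 5 to 62, the highest without library 3. Of 127 alternative log2 fold changes of the neighbours, 121 kept their sign. *Camk2g* turned to 0.057 with voom. Leaving out single libraries gave -0.083 to 0.041 for *Camk2g*, -0.91 to 0.28 for *Comtd1* and -0.14 to 0.060 for *Kat6b*. The range was 0.064 to 0.31 for *Adk*, -0.29 to -0.052 for *Vcl*, -0.33 to -0.16 for *Samd8*, -0.22 to -0.090 for *Ap3m1* and 0.16 to 0.46 for *Zfp503*. The causes were not tested.

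Of the 3 neighbours without overlap, *Comtd1* and *Adk* kept this in every scaling, in each lane, with library 3 added to the low-Vdac2 libraries and with any library left out. The number of neighbours without overlap was 5 in lane 1 and 5 in lane 2, and in the positional list, where it was 5, it was 8 of 26 in lane 1, 11 of 26 in lane 2, 2 of 9 within 1 Mb and 7 of 54 (13.0%) within 5 Mb. Over all tested genes the share was 12.1%, with 47.9% in lane 1 and 37.8% in lane 2. With only 2 libraries against 2, overlap is less frequent by construction. *Camk2g* overlapped without TMM factors and with library 3 added. No paired analysis was possible because the groups share no replicate numbers. *Dusp13* and *Zfp503* rest on 3 to 28 counts per library.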
